A study of Mus musculus with 12 samples.

Results

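The genes read brightest on the arrays of cones that made eNpHR-EYFP were ranked and described within that group alone. The 300 members were chosen by mean log2 level over its 4 arrays, out of 19937 genes that a probe names alone, so they make up 1.5% of the ranked genes. Where several probes named a gene, the brightest stood for it. The levels that selected the members are given as a description, with no test.

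All 12 arrays of the study carried RNA of cones sorted by fluorescence from the retina of C3H/HeNCrl mice, which carry the Pde6b rd1 mutation, here called the f-RD model. An adeno-associated virus was injected under the retina in young mice (P21-28). In every group its cargo stood behind the mouse cone arrestin promoter (mCAR). The sort was thus aimed at cells in which that promoter was active, and its purity was not tested here. In the 4 arrays described here the cargo was mCAR-eNpHR-EYFP, the mice were 165 days old and each array came from 300 sorted cells. Control cones carried mCAR-EGFP, with 4 arrays at 110 days and 4 at 220 days, each from 500 cells. The labels call the arrays of a group biological replicates without naming the animals behind each.

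Cones turn light into an electrical signal through a cascade: an opsin activates the G protein transducin, transducin activates a phosphodiesterase that removes cyclic GMP, and cyclic GMP gated channels in the outer segment close. Arrestin and opsin kinase shut the opsin off, and guanylate cyclase, set by calcium-sensing activator proteins, makes new cyclic GMP. In the rd1 retina rods die first and cones stay behind with shortened outer segments, and eNpHR, a light-driven chloride pump from an archaeon, was made to give such cones a new light response.

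On these 4 arrays the median probe intensity was 6.6 to 7.1. The Pearson correlation between pairs of arrays, taken over all 34760 probes, lay between 0.948 and 0.974. The 300 members stood between a log2 level of 12.47 and 8.91, while the median of all ranked genes was 2.89. Of the members, 282, 281, 287 and 274 were also among the 300 brightest genes of replicates 1, 2, 3 and 4 taken singly. A level also depends on the probe that reads it, and is not set per length of transcript, so a rank orders signals and not molecules. No detection value was used, and whether a dim probe stood above background is unknown. As a yardstick for the dim end, chosen after the values were seen, 1015 olfactory receptor genes had a median level of 2.10 and a 95th percentile of 3.22, and 7864 ranked genes (39.4%) lay above that percentile.

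**Figure D1:**
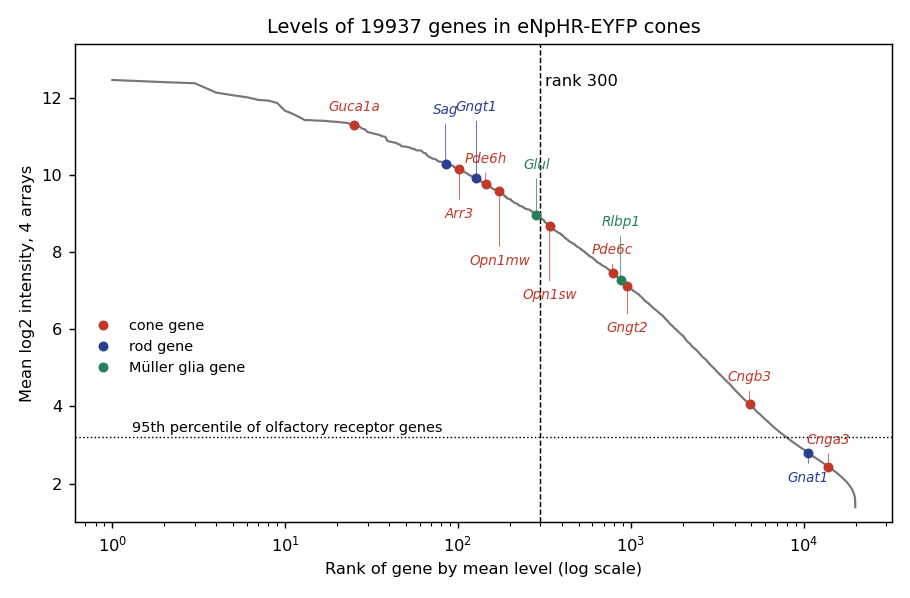
Mean log2 intensity of each of 19937 genes against its rank (log scale), over 4 eNpHR-EYFP arrays, with cone, rod and Müller glia genes marked; the dashed line is rank 300 and the dotted line the 95th percentile of olfactory receptor genes, 3.22. Guca1a stood at rank 25, Opn1sw just outside the 300 brightest at rank 340, and Cnga3 and Gnat1 below the dotted line.

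Some cone genes were among the brightest genes of these cells. All 4 marker genes of cones were members: Guca1a at rank 25, Arr3 at rank 102, Pde6h at rank 145 and Opn1mw at rank 174, and each is read by 1 probe. These markers were given for the cells beforehand and their levels belong to the ranking itself, so they describe the sort and are no separate test of its label. With Gnat2 at rank 184, 5 of 21 ranked cone phototransduction genes (23.8%) were among the 300, 12 lay in the brightest 10% and 16 above the 95th percentile of olfactory receptors. The median rank of this list was 787.

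Guca1a, which codes for a calcium sensor of guanylate cyclase, read 10.92, 10.68, 11.70 and 11.91 in replicates 1 to 4. Arr3, cone arrestin, whose promoter drove the vector, read 9.41, 9.56, 10.77 and 10.85. Both genes were higher in replicates 3 and 4 than in replicates 1 and 2. Pde6h, the inhibitory subunit of cone phosphodiesterase, read 9.23, 8.67, 10.34 and 10.86. Opn1mw, the middle-wave opsin, read 9.33, 8.15, 10.17 and 10.66, the widest spread of any member. Gnat2, the cone transducin alpha subunit, read 9.06, 8.77, 9.97 and 10.20. In the last 3 genes replicate 2 was lowest and replicate 4 highest.

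The stretch of 250 bases before the annotated start of these cone genes is shown for the 5 members of the list, with Sag and Gngt1 of the rod list, because their levels ran in nearly the same order over the arrays. The windows come from RefSeq on GRCm38.p6 and are written 5′ to 3′ along the gene's strand. Capitals mark TAATC or its reverse complement GATTA, the core of sites bound by homeodomain proteins such as Crx and Otx2.
Guca1a (chr17:47400607-47400856, minus strand): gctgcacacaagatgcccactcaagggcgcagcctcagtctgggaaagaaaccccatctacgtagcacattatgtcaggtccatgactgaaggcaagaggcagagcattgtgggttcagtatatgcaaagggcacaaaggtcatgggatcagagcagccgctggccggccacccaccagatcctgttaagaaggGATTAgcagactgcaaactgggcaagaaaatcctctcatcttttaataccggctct
Sag (chr1:87803430-87803679, plus strand): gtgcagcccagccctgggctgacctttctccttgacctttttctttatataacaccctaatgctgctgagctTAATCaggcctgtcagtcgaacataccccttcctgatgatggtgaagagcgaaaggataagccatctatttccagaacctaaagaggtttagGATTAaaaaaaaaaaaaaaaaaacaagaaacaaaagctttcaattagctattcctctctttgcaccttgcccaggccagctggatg
Arr3 (chrX:100605247-100605496, plus strand): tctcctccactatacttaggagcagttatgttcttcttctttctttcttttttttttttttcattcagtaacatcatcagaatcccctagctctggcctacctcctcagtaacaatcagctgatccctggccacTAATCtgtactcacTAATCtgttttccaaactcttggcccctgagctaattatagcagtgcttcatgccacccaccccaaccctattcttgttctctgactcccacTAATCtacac
Gngt1 (chr6:3993758-3994007, plus strand): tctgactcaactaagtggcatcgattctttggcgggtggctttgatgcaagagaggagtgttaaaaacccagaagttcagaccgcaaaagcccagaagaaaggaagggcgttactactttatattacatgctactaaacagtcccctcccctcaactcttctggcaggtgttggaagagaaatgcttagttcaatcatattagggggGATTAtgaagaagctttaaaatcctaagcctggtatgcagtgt
Pde6h (chr6:136954273-136954522, plus strand): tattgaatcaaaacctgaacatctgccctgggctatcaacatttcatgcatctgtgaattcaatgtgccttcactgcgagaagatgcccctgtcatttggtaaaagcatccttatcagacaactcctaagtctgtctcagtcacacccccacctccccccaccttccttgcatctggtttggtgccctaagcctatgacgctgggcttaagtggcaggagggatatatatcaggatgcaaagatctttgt
Opn1mw (chrX:74127216-74127465, plus strand): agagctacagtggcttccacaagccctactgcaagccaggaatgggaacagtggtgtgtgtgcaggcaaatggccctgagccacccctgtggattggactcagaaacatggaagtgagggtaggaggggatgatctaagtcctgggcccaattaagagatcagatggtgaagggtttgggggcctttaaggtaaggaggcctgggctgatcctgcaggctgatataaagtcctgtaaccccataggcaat
Gnat2 (chr3:108092816-108093065, plus strand): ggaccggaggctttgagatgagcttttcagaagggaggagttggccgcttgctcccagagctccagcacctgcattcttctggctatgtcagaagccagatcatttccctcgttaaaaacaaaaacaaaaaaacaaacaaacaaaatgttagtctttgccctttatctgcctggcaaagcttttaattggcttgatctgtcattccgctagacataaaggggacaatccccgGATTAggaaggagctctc

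Arr3 held the letters 3 times, starting 116, 102 and 10 bases before the start, Sag 2 times, and Guca1a, Gnat2 and Gngt1 once each. The windows of Pde6h and Opn1mw held none, and Opn1mw had TATAAA starting 28 bases before the start. Of the 15 windows of the 13 members on the photoreceptor lists, 6 (40%) held TAATC on either strand, against 16.2% of 303 windows of the 300 members, 11.8% of 51 windows of ribosomal protein genes and 19.8% of all 32851 windows. The longer TAATCC, which contains TAATC, was in 33.3%, 7.92%, 3.92% and 6.25% of the same sets, also counting both strands. Of 19176 windows of ranked genes, 17.2% held TAATC and 5.81% TAATCC. The median share of G and C bases differed between the sets, at 53.2%, 59.6%, 58% and 52.4% in the same order. Whether base composition sets these shares was not tested. The counts are matches of letters, and binding was not measured.

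Just outside the 300 stood phosducin, Pdc, which binds transducin beta and gamma subunits (rank 324), the short-wave opsin gene Opn1sw (rank 340) and the cone transducin beta subunit Gnb3 (rank 356). Opn1sw read 8.42, 7.36, 9.36 and 9.60 in replicates 1 to 4, again lowest in replicate 2. Recoverin, Rcvrn, a calcium sensor that holds back opsin kinase, had the widest spread of the list, with 7.12, 6.62, 8.35 and 9.10. Pde6c, the catalytic subunit of cone phosphodiesterase, stood at 7.46 ± 0.93 (rank 787) and Gngt2, the cone transducin gamma subunit, at 7.13 ± 0.79 (rank 958). A second list, of cone genes outside the cascade, gave 0 members of 18. With 1.5% of all ranked genes members, a list of 18 would often hold 0, so the count says little. This second list was led by the potassium channel subunit gene Kcne2 (7.89 ± 0.85) and by Rbp3 (7.46 ± 0.43), which binds retinoids in the matrix around photoreceptors.

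The channel, exchanger and cyclase genes were read at far lower levels. Cngb3, the beta subunit of the cone channel, read 3.92, 3.41, 3.91 and 5.0, and Cnga3, its alpha subunit, stood at 2.44 ± 0.29 (rank 13945). The potassium-dependent exchanger gene Slc24a2 (2.02 ± 0.10) and the cyclase genes Gucy2e (2.78 ± 0.24) and Gucy2f (2.02 ± 0.06) also lay below the 95th percentile of olfactory receptors. Rgs9 and Rgs9bp, which speed transducin shutoff, stood at 3.75 and 3.55, and the opsin kinase Grk1 at 3.50 ± 0.07. Since these values come from different probes and near the dim end, they do not show that the genes were silent.

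In 9 pairs cone genes could be set beside their rod counterparts on the same arrays. The cone gene was the brighter on all 4 arrays in 5 pairs and the rod gene in 2. For transducin alpha, Gnat2 stood at 9.50 ± 0.69 and Gnat1 at 2.80 ± 0.22. For the catalytic phosphodiesterase, Pde6c stood at 7.46 ± 0.93 and Pde6b, the gene mutated in these mice, at 2.34 ± 0.36. Gnat1 and Pde6b lay below the 95th percentile of olfactory receptors, so no size is given for these differences. The inhibitory subunits differed by 3.54 ± 0.36 (Pde6h above Pde6g) and the beta subunits of transducin by 1.95 ± 0.92 (Gnb3 above Gnb1, a gene also used by many other cells). Cnga3 and Cnga1 were both below the percentile, although Cnga3 is counted among the 5, and nothing is read from their order.

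In other pairs the rod gene was level or brighter. Gngt1, the rod transducin gamma subunit, read 9.59, 9.17, 10.26 and 10.65 and stood 2.79 log2 units above Gngt2, with a difference of -2.79 ± 0.13 for cone minus rod. Sag, rod arrestin, read 9.89, 9.71, 10.76 and 10.80 and differed from Arr3 by less than the spread over the arrays (-0.15 ± 0.24). Slc24a2 and Slc24a1, the other pair counted for the rod gene, were both below the percentile, and the channel beta subunits Cngb3 and Cngb1 did not differ beyond their spread (0.03 ± 0.63). Sag at rank 85 and Gngt1 at rank 128 were members, as was Rom1, a disc rim protein shared by rods and cones, at rank 230. The rest of the 17 ranked rod genes lay outside, and their list had a median rank of 9967. Of the 17, 5 lay in the brightest 10% and 7 above the 95th percentile of olfactory receptors, beside 39.4% of all ranked genes. Pde6g, outside the 300, stood at 6.23 ± 0.68 (rank 1630). The transcription factor Nrl, which directs rod fate, ranked 12805, Pde6a 12675 and Cnga1 18477. Whether the RNA of Sag and Gngt1 came from cones or from rods was not tested.

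**Figure D2:**
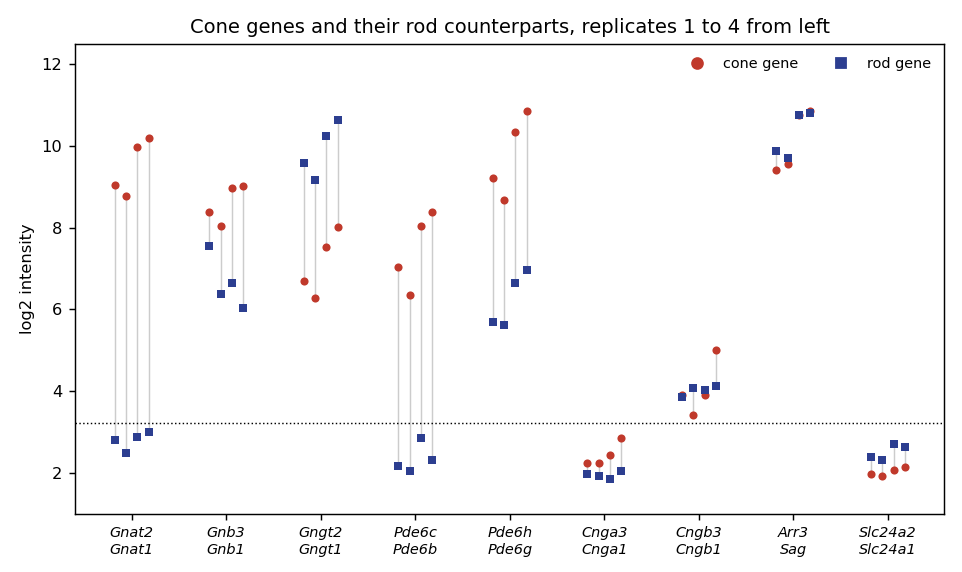
Log2 intensity of cone genes (circles) and their rod counterparts (squares) in replicates 1 to 4, from left to right within each pair; the dotted line is the 95th percentile of olfactory receptor genes. Gnat1 and Pde6b lay below the line on every array, whereas Sag and Gngt1 lay above 9 on every array.

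The other photoreceptor members were on the lists of transcription factors and of outer segment and cilium genes. Neurod1, a helix-loop-helix factor needed for photoreceptor upkeep, ranked 124 and read 9.55, 9.50, 10.10 and 10.62 in replicates 1 to 4. Mef2d, a cofactor of Crx at photoreceptor genes, ranked 258 at 9.10 ± 0.12, by a probe whose partner read 2.75. Other regulators were dimmer: Otx2 at 6.48, Crx at 5.13, Sall3 at 5.34 and the retinoid receptor Rxrg at 5.05, while Thrb, the thyroid hormone receptor that sets middle-wave cone fate, stood at 2.44 (rank 13909). Of 34 ranked outer segment and cilium genes 4 were members. These were Unc119 (rank 64), which carries lipid-modified transducin, Arl3 (rank 99), the small GTPase that releases such cargo, Rom1, and the transport protein Ift20 (rank 259). Prph2, the partner of Rom1 at the disc rim, stood just outside at rank 310 with 8.85 ± 0.63, and Abca4, the retinoid flippase of the discs, stood at 3.55. Complexin 3, Cplx3, of the ribbon synapse, had rank 250. Pcp4, a calmodulin-binding protein that was put on the same list, had rank 271.

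The rest of the bright end was led by genes for making protein and for respiration. Cytosolic ribosomal protein genes held 13 of the first 30 ranks and nuclear genes of oxidative phosphorylation 4. Among the first 100 ranks they held 26 and 16. Rps6, a protein of the small ribosomal subunit, ranked first with log2 levels of 12.38, 12.32, 12.53 and 12.63 in replicates 1 to 4. Among the 300 members were 42 of 55 ranked ribosomal protein genes, whose median rank was 109. Eef1a1, the factor that brings aminoacyl-tRNA to the ribosome, stood at rank 4 with 12.14 ± 0.10 (SD, n = 4, as for all levels below). Tpt1, a growth-linked calcium-binding protein, had rank 17. Of 32 ranked translation factors 4 were members, so the initiation and elongation factors as a list lay lower (median rank 1433) than the ribosomal proteins.

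The ribosomal ranks lean on the choice of probe. Of the 300 members, 117 have several probes against 954 of all ranked genes, and Rps6 has 7 and Rpl9 has 8. The brightest Rps6 probe read 12.47, the next 10.88, and the mean over its probes was 8.19. Probes stand in the table in the order of the genome, and for 63 members (21%) the brightest probe stood among neighbours that name genes of another chromosome, as for 236 of all ranked genes (1.18%). Among these 63 were Rps6, Rpl9, Atp5g2, Rps7, Mif, Tpt1, Slc25a5 and Prdx2 of the first 30. Whether such a probe reads a copy of the gene at another place in the genome was not tested. With the mean of all probes of a gene, 25 ribosomal protein genes stayed among the 300 brightest, and with genes of 1 probe alone 8 were there.

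Respiratory genes filled as many places. Of 82 ranked nuclear genes of oxidative phosphorylation 43 were members and 71 lay in the brightest 10% of all genes. The 2 ranked genes of the mitochondrial genome stood at rank 2 (ND3, a subunit of complex I, 12.41 ± 0.14) and rank 10 (COX2, a subunit of cytochrome c oxidase, 11.67 ± 0.14). Subunits of cytochrome c oxidase followed with Cox6b1 at 11.41 ± 0.05 and Cox6a1 at 11.26 ± 0.21. Of the membrane ring of ATP synthase, Atp5g2 stood at 11.95 ± 0.09 and Atp5g3 at 11.12 ± 0.03. Atp5g3 is read by 1 probe, whereas the next probe of Atp5g2 read 7.48. Complex I gave members such as Ndufb6 (10.87 ± 0.07), Ndufc2 (10.68 ± 0.11) and Ndufa4 (10.62 ± 0.19), the last of which is now counted with cytochrome c oxidase. With the mean of all probes 37 genes of this list were among the 300 brightest and with genes of 1 probe alone 38, but 27 once probes that name several genes were let in.

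ATP carriers and buffers were bright as well, with 6 of 14 ranked genes among the members. The ADP/ATP carriers Slc25a5 and Slc25a4 had ranks 21 and 51, and the brain-type creatine kinase Ckb rank 91. Ckb read 10.57, 10.36, 10.30 and 9.77 in replicates 1 to 4, lowest in replicate 4. Glycolysis gave 5 members of 15 ranked: the hexokinase Hk1, the aldolases Aldoa and Aldoc, the phosphoglycerate kinase Pgk1 and the pyruvate kinase Pkm. Hk1 ranked 42 by a probe at 10.85 whose partner read 2.89, and Aldoa, read by 1 probe, stood at 10.32 ± 0.19. Malate dehydrogenases were the 2 citrate cycle genes among the members, Mdh1 at rank 156 and Mdh2 at rank 235. For the sodium pump and ion balance 0 of 15 ranked genes were members, which says little beside 1.5% of all ranked genes. The highest of this list was the taurine transporter Slc6a6 at rank 793.

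Antioxidant genes held 8 places of 25 ranked. Prdx2, a peroxiredoxin that removes hydrogen peroxide, stood at 11.32 with an SD of 0.02 and was among the steadiest of the 300. Sod1, the cytosolic superoxide dismutase, had rank 37, Park7 rank 39 and Gpx4, which reduces lipid peroxides, rank 54. Fth1, the heavy chain of ferritin, stood at 10.35 ± 0.03. Glo1, which detoxifies methylglyoxal, a by-product of glycolysis, ranked 12 at 11.51 ± 0.14, although its second probe read 6.38.

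Protein turnover and folding gave fewer members. Of 39 ranked proteasome genes 5 were among the 300, led by the catalytic core subunit Psmb5 at rank 28 and by Psmb4 at rank 36, and 31 lay in the brightest 10%. Chaperones gave 7 of 37, with the prolyl isomerase Ppia at rank 44, the heat shock protein Hsp90aa1 at rank 48 and Hspa8 at rank 133. Of the cytoskeleton list 5 of 36 were members, among them the tubulin Tuba1a (10.48 ± 0.11) and the tubulin-sequestering stathmin Stmn1. Stmn1 read 10.14, 10.16, 9.73 and 9.15 in replicates 1 to 4, so replicate 4 was again lowest. RNA processing gave 6 of 49, led by the spliceosome proteins Snrpd2 and Snrpe at ranks 104 and 139. Of 77 ranked mitochondrial ribosomal proteins 5 were members, and of 24 proton pump genes 1, Atp6v0b, beside 1.5% of all ranked genes.

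The lists together covered 161 of the 300 members and left 139 on none. By rank, the first of these were Mif, a cytokine and tautomerase, Glo1, the tetraspanin Cd63 of late endosomes, Rnf7, a ring subunit of cullin ubiquitin ligases, and Tmed2, a cargo receptor between endoplasmic reticulum and Golgi. Mif read 11.86, 11.78, 11.68 and 11.06 in replicates 1 to 4. Mab21l1, a gene of eye development read by 1 probe, stood at rank 63 with an SD of 0.02. By RefSeq, 297 of the members code for protein, and their genes span a median of 6.01 kb of genome against 17.7 kb for all 19918 ranked genes that RefSeq lists.

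Markers of other retinal cells were also read on these arrays. In bulk RNA, fewer cells of a type and less RNA per cell cannot be told apart. Of the Müller glia list 2 of 24 ranked genes were members: clusterin, Clu, a secreted chaperone (rank 143, just ahead of Pde6h at rank 145), and glutamine synthetase, Glul (rank 285). Glul read 9.94, 9.63, 7.89 and 8.40 in replicates 1 to 4, with replicates 1 and 2 above the others. These values come from its brightest probe, and the gene's other probe read 6.57. With the mean of all probes of a gene (7.77 for Glul), Glul was no longer a member. Apolipoprotein E, Apoe, was just outside at rank 375, and Rlbp1, which binds retinaldehyde in Müller glia, stood at rank 875. In all 21 of the 24 lay above the 95th percentile of olfactory receptors. The astrocyte list gave 1 member of 8, Aldoc, an aldolase that was also counted under glycolysis, whereas Gfap, its defining filament protein, stood at 2.34 (rank 14864).

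The lists of bipolar, amacrine, horizontal and ganglion cells gave no member, although some of their genes lay well above the dim end. Of all ranked genes 1.5% were members and 39.4% lay above the percentile of olfactory receptors. Lists of this length would often hold no member at that share, so the lack says little. It also rests on how genes were listed: Pcp4 (rank 271) was counted under the ribbon synapse and is on none of these lists. Of the bipolar list 0 of 20 were members and 16 lay above the percentile, led by Nyx (7.13 ± 0.28), the G protein subunit Gng13 (7.12 ± 0.54), Pcp2 (6.97 ± 0.43) and the calcium-binding Cabp5 (6.86 ± 0.73), while the receptor gene Grm6 stood at 3.16. The Nyx probe stood among neighbours of another chromosome, and the gene's other probe read 2.83. Of 20 amacrine genes 12 lay above it, led by the vesicular GABA transporter Slc32a1 (7.22 ± 0.31) and with the GABA-making enzyme Gad1 at 6.25 ± 0.62. Of 11 horizontal cell genes 7 lay above it, led by Septin4 (8.06 ± 0.42), Tpm3 and Slc4a3. The Tpm3 probe also stood among neighbours of another chromosome, and the gene's next probe read 6.35. Slc4a3 ranged from 5.12 to 7.94 over the arrays, and its other probe read 4.85. The horizontal cell factors Lhx1, Onecut1 and Prox1 stood at 2.59, 2.70 and 2.53. Of 16 ganglion cell genes 7 lay above the percentile, close to the share of all ranked genes, led by Gap43 at 5.44. The factor Pou4f1 stood at 2.03.

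The lists of pigment epithelium, microglia, vascular and red blood cells lay near the dim end. The pigment epithelium list had 4 of 15 genes above the percentile and Rpe65, its retinoid isomerase, at 1.90. The microglia list had 5 of 19, led by Trem2 at 4.02, with P2ry12 at 1.94 and Aif1 at 2.19. The vascular list had 1 of 14, Esam at 3.34, with the endothelial genes Pecam1 at 2.15 and Cdh5 at 2.08. Of 9 listed red blood cell genes only 2 were ranked, Slc4a1 and Alas2, and 0 of these lay above the percentile. With so few genes read, the list says little about blood.

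**Figure D3:**
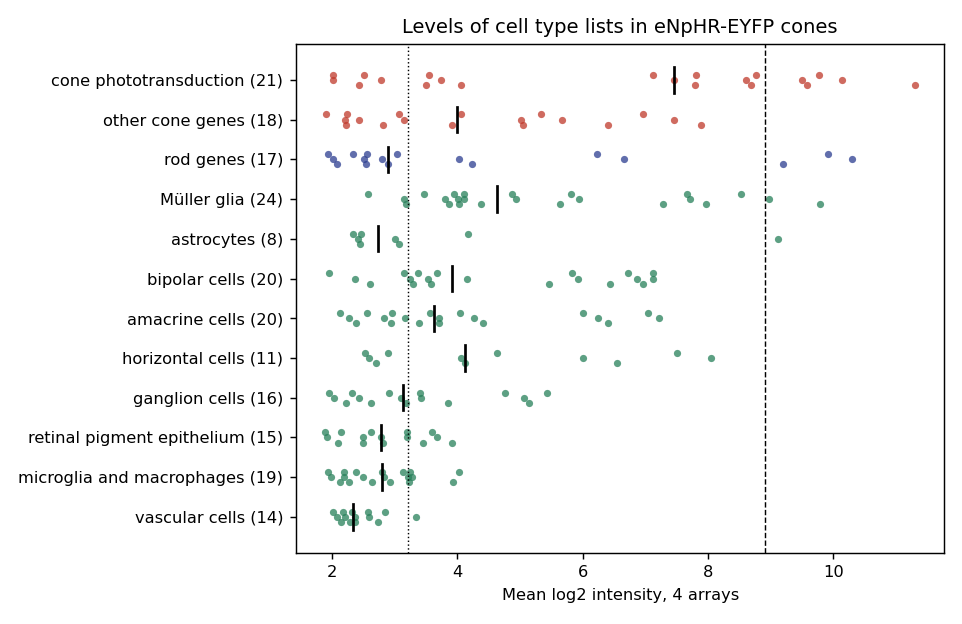
Mean log2 intensity over 4 arrays of each gene on 12 cell type lists, with the number of ranked genes in brackets and a black bar at each list's median; the dotted line is the 95th percentile of olfactory receptor genes and the dashed line the level of rank 300. Dots right of the dashed line are members: 5 of the cone phototransduction list, 3 of the rod list, 2 of the Müller glia list and 1 of the astrocyte list.

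The members differed in how steady they were over the 4 arrays. The median SD of the 300 was 0.16, close to 0.17 for all ranked genes, and the largest was 1.10 for Opn1mw. Next came Pde6h (1.0), Glul (0.98), Taf1d (0.89), H1f2 (0.83) and Arr3 (0.77). Of the 30 members with the largest SD, 10 were on the photoreceptor lists, which hold 13 members in all. Only 2 of those 30 were ribosomal or nuclear oxidative phosphorylation genes, which hold 85 members. Another 2 were on lists of glia or inner retinal cells, which hold 3 members. The steadiest were Mab21l1, Prdx2, Skp1, Atp5g3 and Rpsa, with SDs of at most 0.03. The median SD of the cone phototransduction list was 0.60 and that of the Müller glia list 0.64.

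**Figure D4:**
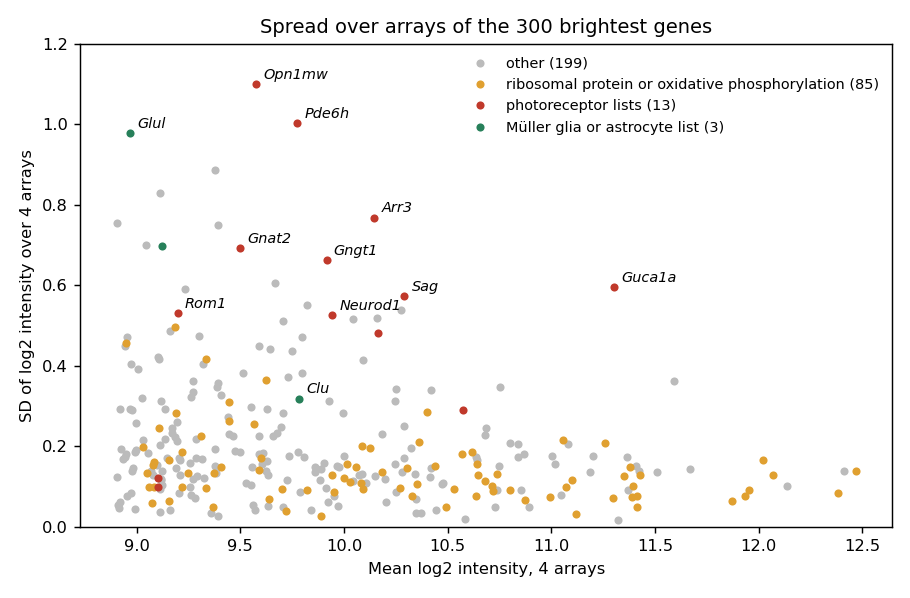
SD over 4 arrays against the mean log2 intensity of the 300 brightest genes, 1 point per gene. Photoreceptor genes (red) such as Opn1mw, Pde6h and Arr3 lay above most ribosomal and oxidative phosphorylation genes (orange), and Glul (green) reached 0.98.

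Many photoreceptor genes ran in one order over the arrays. The order was taken from Opn1mw after its values were seen, as the member with the largest SD, and Opn1mw is counted in what follows. Of the 13 photoreceptor members 10 had it, lowest in replicate 2, then 1, 3 and 4. This order was found in 61 of the 300 members (20.3%) and in 1465 of all ranked genes (7.35%). Among the cone phototransduction genes it was found in 11 of 21, also with Opn1mw. These shares are a description, with no test. The reverse order was found in 30 members (10%) and in 5.3% of all ranked genes. Replicate 4 was the highest array for 114 members of any kind and replicate 2 the lowest for 125.

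Müller glia genes were mostly highest in replicate 1. Over the 16 cone phototransduction genes above the percentile the mean level was 7.25, 6.90, 7.94 and 8.25 in replicates 1 to 4, with 14 of them highest in replicate 4 and 12 lowest in replicate 2. Over the 21 Müller glia genes above it the mean was 6.58, 5.76, 5.38 and 5.29, with 15 of them highest in replicate 1. Both means were lower in replicate 2 than in replicate 1, and of the 24 ranked Müller genes 2 had the exact reverse of the Opn1mw order and 1 had that order itself. Rlbp1 read 8.68, 7.88, 6.44 and 6.13, and the tetraspanin gene Cd9 7.53, 5.67, 5.15 and 4.21. The Müller-listed Mfge8, which marks dying cells for uptake, ran with the cone genes instead, at 7.71, 6.93, 8.46 and 8.76. Bipolar genes had means of 5.53, 5.39, 5.16 and 4.76 and amacrine genes 5.32, 5.05, 5.16 and 4.47, both lowest in replicate 4. Horizontal cell genes had means of 5.59, 5.26, 6.62 and 5.93 over 7 genes, with 5 highest in replicate 3 and 4 lowest in replicate 2, and the 2 astrocyte genes above the percentile 6.84, 6.48, 6.78 and 6.49. The lists of other cell types thus had no single order. Among the 7864 ranked genes above the percentile replicate 1 was highest for 2759 and replicate 4 lowest for 3401. Whether the share of glia or inner retinal RNA in each sort sets the cone levels was not tested.

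**Figure D5:**
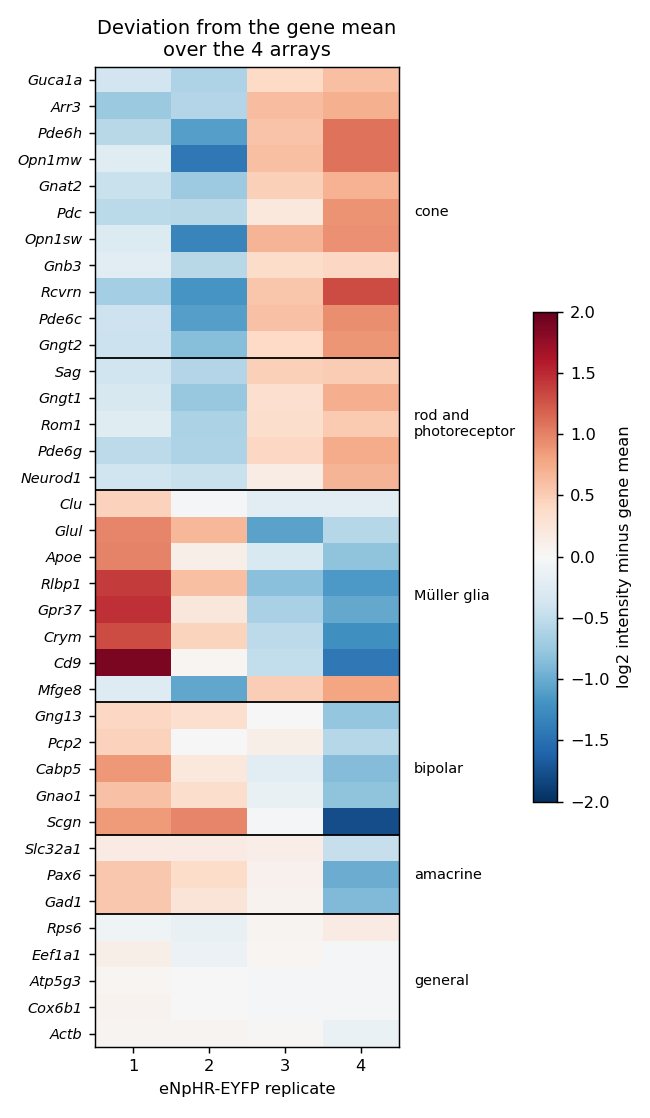
Difference of each array from the gene's mean over the 4 eNpHR-EYFP arrays, on the log2 scale (colour), for cone, rod and photoreceptor, Müller glia, bipolar, amacrine and general genes. Cone genes were above their mean in replicates 3 and 4, most Müller glia genes were above it in replicate 1, and Rps6, Atp5g3 and Actb stayed close to their means.

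Antigen presentation and interferon genes gave 0 members of 20, which says little where 1.5% of all ranked genes were members. The brightest genes of this list spread widely over the arrays. B2m, which codes for beta-2 microglobulin of MHC class I, read 9.37, 7.66, 6.04 and 6.24 in replicates 1 to 4, and the interferon-induced Ifit3 read 8.33, 7.11, 5.74 and 6.07. Both were highest in replicate 1, like most of the Müller glia genes. The stress factor gene Ddit3 read 7.10, 6.93, 7.72 and 8.36, in the order of the cone genes.

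Part of the group could also be placed on the EGFP arrays, as a description. The leading lines of the table were used, taken in blocks of 500 lines for as long as the EGFP and eNpHR-EYFP means correlated at 0.9 or more within the block, so a likeness between the arrays was built into the choice of lines. In these lines 4942 genes could be ranked, 68 of them members. On the mean of the 8 EGFP arrays 58 of these 68 (85.3%) were also among the 68 brightest, and the same number was found with the arrays of 110 or 220 days alone. The 10 outside were Eloc, Glul, Mocs2, Sag, Rnasek, Tspan13, Ufc1, Acbd6, Scg2 and Ptges3, and the lowest of them stood at place 110. Since lines were kept by their likeness, the share is no independent support for the ranks. These 10 are named because they are few, after their values were seen.

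At the edge of the group, Gabarapl2, Txn1 and Tagln3 stood inside at ranks 298, 299 and 300, and Rpl19, Scg5 and Rheb outside at ranks 301, 302 and 303. Their levels ran from 8.91 to 8.87, and Tagln3 alone had an SD of 0.75, so membership at the edge is within the spread over the arrays. A further 415 probes were brighter than rank 300 but name several genes (122) or none (293) and were left out. For 28 members the second probe was more than 4 log2 units dimmer than the first, as in Gas5 (11.08 against 2.07), Cdkn1b (10.87 against 2.49) and Cnot1 (10.04 against 2.80), and for 38 it was within 1.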

How the data were processed

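Per the labels' protocols, a PicoPure kit isolated the RNA and biotinylated targets were made from 8 ug of it after Affymetrix manuals for whole-transcript arrays; no source used here says how much amplification 300 cells needed. The authors deposited a linear intensity for each of 34760 probes on every array, made with RMA and affy per the submitters' processing notes, with no version. RMA corrects background, normalizes arrays and summarises probes, which pulls arrays toward a common distribution. No source used here names the arrays normalized together or the array's genome build.

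Log2 was taken with no pseudocount. The platform annotation names 1 gene for 21640 probes, several for 1321 and none for 11799. Genes were ranked by the brightest probe's mean over the 4 eNpHR-EYFP arrays, and no test or group contrast was made. EGFP values were used only in leading lines, kept while blocks correlated with the eNpHR-EYFP means, since later lines stand beside other probes. In the late lines of the eNpHR-EYFP columns, 532 pairs of probes of the same gene correlated over genes with r = 0.544 in place, against -0.0458 to 0.185 when read up to 31 lines away. Depth has no meaning for arrays, and their number, 4, limits precision.

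The members and the 36 lists were chosen with earlier results of these data known, and some lists were corrected after values were seen. Named genes are the 30 highest, the cone markers, 3 on either side of rank 300, the 10 largest and 5 smallest SDs, cone phototransduction genes and pairs, and the up to 4 highest of every other list, leaving out predicted genes, clones, small non-coding RNAs (so Rnu12, with an SD of 0.75, is not counted) and pseudogenes. Further members of a list that define its cell type, fill it out or stand at the dim end, and genes in no list or with distant probes, were named after their values were seen. Ranking was tested on simulated data. Python 3.11.15, numpy 2.4.6, pandas 2.3.3 and matplotlib 3.10.9 were used. Promoter windows are RefSeq's, and 248 of the 300 members had one. Alternatives are given in the closing section.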

Additional observations from a re-analysis of the deposited data

Results flagged for a closer look

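In 10 of 216 values examined (4.63%), 182 named genes and the list means, 1 array stood apart from the other 3, whose own range was small beside the gap. Chance marks about 1 in 20 such groups. In 7 of the 10 that array was replicate 4.

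Among the members, the proton pump subunit gene Atp6v0b read 9.46 in replicate 4 against 10.05 to 10.12 in the others. The ribbon synapse gene Cplx3 read 8.95 in replicate 4 against 9.15 to 9.20, and Pcp4 8.01 in replicate 4 against 9.28 to 9.53.

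Outside the 300, Slc32a1, the vesicular GABA transporter gene, read 6.75 in replicate 4 against 7.35 to 7.39, and the calmodulin gene Calm3 read 5.92 in replicate 4 against 6.91 to 7.0. The lens crystallin gene Crygc read 5.13 and the microglial receptor gene Cx3cr1 4.39 in replicate 4, above 4.37 to 4.47 and 3.75 to 3.79 in the others. Replicate 3 was the high array for Septin4 (8.69 against 7.81 to 7.88) and for the cone-listed Ccdc136 (6.72 against 6.29 to 6.34). The mean of the astrocyte list was 3.79 in replicate 1 against 3.56 to 3.6.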

How the results depend on the processing

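No paired analysis was possible because the result comes from no test. The counts moved with the rules on probes. With the mean of all probes, 231 of the 300 members stayed, 25 ribosomal protein genes were among the 300 brightest (42 as reported) and cone phototransduction genes were 8 (5 as reported). With probes that name several genes included, 184 members stayed and oxidative phosphorylation genes were 27 (43 as reported). With genes of 1 probe only, chosen after seeing the data, 183 stayed, with 8 ribosomal and 8 cone genes. With probes among neighbours of the same chromosome, also chosen after seeing the data, 260 stayed, with 31 ribosomal, 39 oxidative phosphorylation and 7 cone genes. Among the 200 brightest, oxidative phosphorylation genes were 27, and among the 500 brightest, cone genes were 8; those counts follow the size of the group.

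Quantile normalization kept 300 members, the median over arrays 297 and the mean of linear intensities 296. Leaving out each array in turn kept 291 to 297, with 41 to 43 ribosomal, 43 to 44 oxidative phosphorylation and 5 to 7 cone genes, and left 5 pairs with the cone gene brighter on every array. Of 182 named genes, the level moved by more than 1 SD in 46 with the mean of probes, in 26 with same-chromosome probes and in 2 with several-gene probes. Limits are the 4 arrays, 300 cells each, unknown background and amplification, and levels that cannot be ordered between probes by molecules.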

Other observations

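Some members outside the photoreceptor and cell type lists also differed widely between arrays. Tagln3, a neuronal actin-binding protein, read 9.25, 9.49, 9.08 and 7.80 in replicates 1 to 4, and Taf1d, a subunit of the RNA polymerase I selectivity factor, 10.12, 9.94, 9.27 and 8.16. H1f2, a linker histone, ran with the cone genes at 8.45, 8.39, 9.57 and 10.05. The calmodulin gene Calm2 read 10.65, 10.07, 9.97 and 9.67, and Tmsb10, which binds monomeric actin, 9.87, 9.78, 10.54 and 10.90. The Tmsb10 probe stood among neighbours of another chromosome, and the gene's other probe read 4.45.

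The difference of Gngt2 from Gngt1 kept an SD of 0.13 over the arrays, while Gngt1 itself had an SD of 0.66 and Gngt2 of 0.79.

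No olfactory receptor gene was among the 300, but the brightest of them ranked 455.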
